A study of Homo sapiens with 6 samples.

Results

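RT-qPCR (quantitative PCR on reverse-transcribed RNA) reports a transcript relative to a reference gene that is taken to be equal in every sample. The genes described here are 8 that laboratories commonly use for this purpose, *HPRT1*, *ACTB*, *TBP*, *PPIA*, *YWHAZ*, *GUSB*, *TFRC* and *PPIB*, taken by name from the 17222 gene names of an RNA-seq count table, and all 8 had enough counts to be tested. *HPRT1* was the reference of the RT-qPCR in the study itself. The libraries come from H226, an established human lung squamous carcinoma line, 48 h after transfection with an antisense oligonucleotide, a short DNA-like strand that directs the cell's RNase H to cut the RNA it pairs with. There were 3 libraries with the control oligonucleotide ASO_CTRL and 3 with ASO_LINC#3, directed at the long noncoding RNA *SWINGN*, which binds subunits of the SWI/SNF chromatin remodelling complex. A single targeting oligonucleotide in a single line was sequenced, no untransfected cells are in the series, and the row of *SWINGN* was not analysed here. The labels do not say whether the replicates are separate cultures. The study's reporting form gives biological triplicates as a general rule, with exceptions in figure legends, and does not name these libraries. The p-values therefore measure only the spread between these libraries, which may be technical.

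Between 3686828 and 10546786 reads per library were counted on genes. ASO_LINC#3 replicate 3 was the shallowest and stood apart from the other ASO_LINC#3 libraries in its dependence on base composition. In it, genes with a transcript GC content of up to 42% lay at a median of -0.18 log2 units from their mean over the 6 libraries. Genes above 54% lay at 0.26 in the same library. Replicates 1 and 2 were instead at 0.15 and 0.18 for the first class and at -0.14 and -0.18 for the second. CPM is each gene's share of the counts on genes, scaled to a common total. For the markers in this paragraph the scaling used library size only. Elsewhere CPM was also scaled by TMM, the trimmed mean of M-values. Of 7 squamous markers, *KRT5* was at 63 to 119 CPM and *KRT6A* at 0 to 2.06 CPM, and *TP63*, *KRT14*, *DSG3*, *SOX2* and *PKP1* were not listed. The mesothelial markers *MSLN*, *CALB2*, *WT1*, *UPK3B* and *LRRN4* were all detected, with *CALB2* at 119 to 707 CPM, and *ITLN1* was at 0.147 to 1.44 CPM. The keratins of simple epithelia *KRT7*, *KRT8*, *KRT18* and *KRT19* and the mesenchymal filament gene *VIM* ranged from 773 to 5390 CPM. None of 4 lung adenocarcinoma markers was listed, and of 6 leukocyte and endothelial markers only *CD68* was, at 1.04 to 6.51 CPM.

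Reference genes are chosen from processes that every cell runs. *HPRT1* encodes the purine salvage enzyme hypoxanthine phosphoribosyltransferase, which returns hypoxanthine and guanine to the nucleotide pool. *ACTB* encodes the cytoskeletal protein beta-actin, and *TBP* the TATA-binding protein at the core of the general transcription factor TFIID. *PPIA* and *PPIB* encode cyclophilin A of the cytosol and cyclophilin B of the endoplasmic reticulum, which catalyse proline isomerisation during protein folding. *YWHAZ* encodes a 14-3-3 adaptor that binds phosphorylated proteins, *GUSB* the lysosomal enzyme beta-glucuronidase, and *TFRC* the transferrin receptor, which brings iron into the cell and whose mRNA is stabilised when iron is scarce. Any real change of the reference enters every fold change computed from it, with the opposite sign.

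The RT-qPCR primers for *HPRT1* are shown because they say which part of the transcript carried the normalisation. The gene (ENSG00000165704.15_6) lies on the plus strand of chrX:133594195-133654543 in GRCh37. The forward primer matches exon 6 at chrX:133627546-133627566, and the reverse primer spans the junction of exon 6, chrX:133627619-133627620, and exon 7, chrX:133632420-133632438. The product has 94 bases, all of them coding, in a transcript of 9 exons and 1395 bases. Both primers were found together in 3 annotated transcripts, all of *HPRT1*. The primers and the product are written 5′ to 3′, the product on the strand of the mRNA with the primer sites in capitals.
Forward primer: TGACACTGGCAAAACAATGCA
Reverse primer: GGTCCTTTTCACCAGCAAGCT
Product: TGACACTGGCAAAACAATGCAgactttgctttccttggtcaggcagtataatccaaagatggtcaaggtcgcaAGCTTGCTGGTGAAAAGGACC

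The RNA-seq counts are totals for the gene and not for this product alone, so they bear on the level of the *HPRT1* mRNA and not on the PCR. In bulk RNA of this kind, fewer cells that express a gene and less of its RNA per cell cannot be told apart.

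None of the 8 reference genes passed the thresholds of the differential expression test, which were 0.01 for the adjusted p and 0.5 for the size of the log2 fold change, in edgeR's quasi-likelihood test over all 6 libraries. Of the 14660 genes tested, 1106 (7.54%) passed them, 720 higher and 386 lower with ASO_LINC#3. DESeq2 and limma-voom also called 0 of the 8, while they called 1597 and 1213 of all genes. The adjusted p of *HPRT1* was 0.0344 by DESeq2 and 0.0559 by limma-voom. At an unadjusted p under 0.05 there were 3 of the 8 (*HPRT1*, *GUSB* and *PPIA*), against 32.4% of all genes tested. The same 3 genes had CPM values that did not overlap between the groups, which was the case for 36.1% of all genes tested. *HPRT1* and *GUSB* were at the top of the 8 by fold change, *PPIA* was at the bottom, and *PPIB* was nearest to no change. The 95% interval of the log2 fold change lay wholly within 0.5 of zero for *ACTB*, *TFRC* and *PPIB*, 3 of the 8, and for 15.1% of all genes tested. For the other 5 genes a change of at least that size remained within the interval.

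*HPRT1*, the reference of the study, gave 116, 105 and 119 CPM in ASO_CTRL replicates 1, 2 and 3, from 863, 609 and 1242 counts. In ASO_LINC#3 it gave 184, 191 and 120 CPM, from 1250, 1116 and 443 counts. Replicates 1 and 2 of ASO_LINC#3 lay well above every control library, while replicate 3 lay just above the highest of them. The group means were 113 ± 7.34 and 165 ± 39.0 CPM (SD, n = 3), so that the spread within ASO_LINC#3 was several times that within ASO_CTRL. The log2 fold change was 0.55 (SE 0.17, 95% interval 0.16 to 0.93), with an adjusted p of 0.0528 by edgeR.

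The call on *HPRT1* turned on 1 library. Without ASO_LINC#3 replicate 3 its log2 fold change was 0.73 (SE 0.10) and its adjusted p 0.000405, and it rose past both thresholds in a fit that called 17.2% of all genes tested. When any other library was left out, its log2 fold change was between 0.43 and 0.58 with adjusted p from 0.118 to 0.184. *HPRT1* has a transcript GC content of 40.4%, in the class that was low in replicate 3. With trends on GC content and length removed from each library, *HPRT1* stood at 0.66, 0.66 and 0.30 log2 units above the ASO_CTRL mean in ASO_LINC#3 replicates 1, 2 and 3, and was called higher at a log2 fold change of 0.55 (SE 0.12, adjusted p = 0.00546), in a fit that called 13.2% of the 12778 genes with a GC content. The adjusted p of *HPRT1* ranged from 0.000405 to 0.184 over the settings run.

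**Figure D1:**
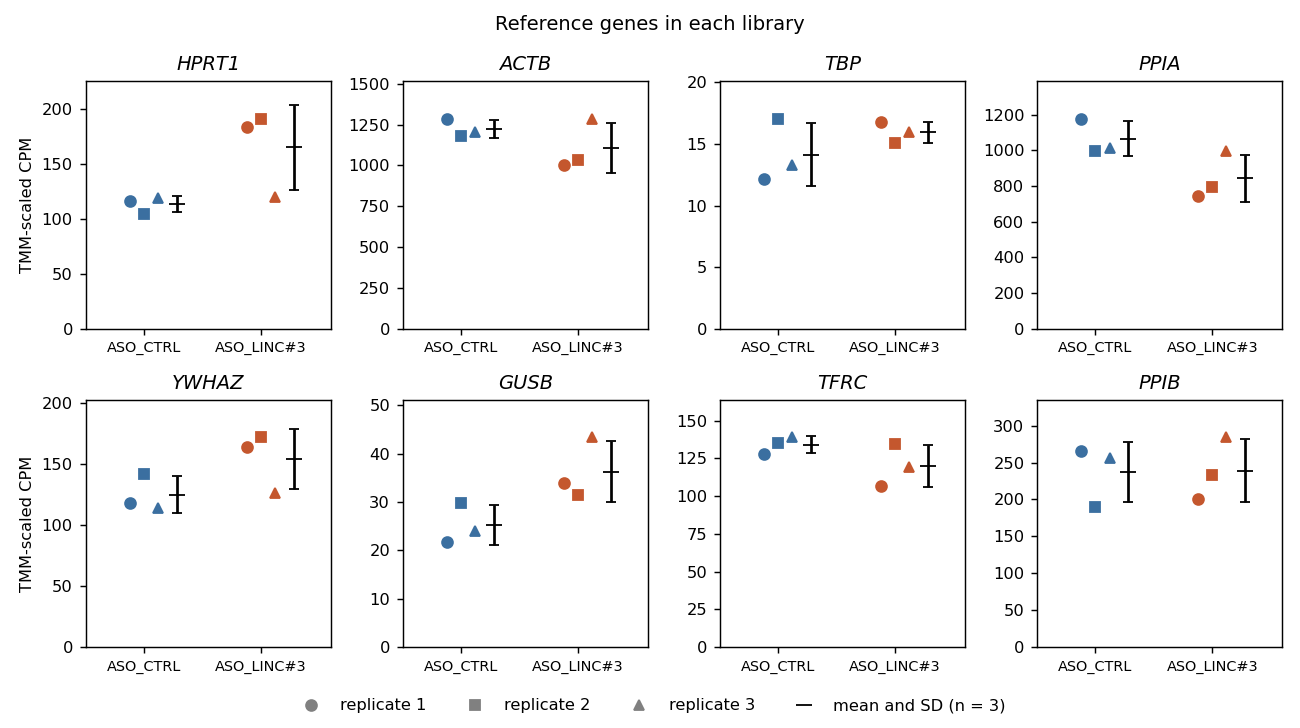
Expression of each of the 8 reference genes, as CPM scaled by TMM (vertical axes, each from 0), in the 3 ASO_CTRL libraries (blue) and the 3 ASO_LINC#3 libraries (orange). Marker shapes stand for the replicate numbers and the bars for mean and SD. *HPRT1*, at 105 to 119 CPM in the controls, reached 184 and 191 CPM in 2 of the ASO_LINC#3 libraries and 120 CPM in replicate 3.

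*GUSB* had a fold change of nearly the same size as *HPRT1*, but with a different pattern over the libraries. It lay 0.44, 0.33 and 0.79 log2 units above the ASO_CTRL mean in ASO_LINC#3 replicates 1, 2 and 3. Its values were 21.8, 29.8 and 23.9 CPM in ASO_CTRL and 34.0, 31.5 and 43.4 CPM in ASO_LINC#3, where replicate 3 was the highest. The groups did not overlap, and the log2 fold change was 0.52 (SE 0.18, 95% interval 0.13 to 0.92, adjusted p = 0.0657 by edgeR). *GUSB* is a GC-rich transcript (55.5%), in the class that was high in replicate 3. Without that library its log2 fold change was 0.39 (adjusted p = 0.0684), and with the GC and length trends removed it was 0.51 (adjusted p = 0.0182). It rests on 160 to 251 counts per library. The table also lists 4 *GUSB* pseudogenes, which held between 25.6% and 43% of the reads on *GUSB* and these copies together, and adding their reads gave a log2 fold change of 0.38 (adjusted p = 0.106).

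*YWHAZ* was measured at 118, 142 and 114 CPM in ASO_CTRL and at 164, 172 and 126 CPM in ASO_LINC#3. As for *HPRT1*, replicates 1 and 2 of ASO_LINC#3 were above all control libraries, but replicate 3 fell within their range. The log2 fold change was 0.31 (SE 0.15, 95% interval -0.03 to 0.65, adjusted p = 0.191), and without replicate 3 it was 0.43 (adjusted p = 0.0162). *YWHAZ* has a low GC content (39.6%), and with the trends removed its value was 0.21 (adjusted p = 0.202). Its 5 listed pseudogenes held 15.8% to 19.8% of the combined reads, with which its log2 fold change was 0.35 (adjusted p = 0.133).

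*TBP* had the lowest counts of the 8, between 59 and 139 per library. It gave 12.1, 17.0 and 13.3 CPM in ASO_CTRL and 16.8, 15.1 and 16.0 CPM in ASO_LINC#3, and the ranges overlapped. The log2 fold change was 0.18 (SE 0.18, 95% interval -0.22 to 0.59, adjusted p = 0.531). At this depth counting alone gives an SD of 0.12 to 0.19 on the log2 scale in a library, which is close to the SD of 0.19 observed over the 6 libraries, and its interval still holds a change as large as that fitted for *HPRT1*.

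*ACTB* showed 1281, 1178 and 1206 CPM in ASO_CTRL and 1005, 1030 and 1285 CPM in ASO_LINC#3. Replicates 1 and 2 of ASO_LINC#3 lay under all control libraries and replicate 3 above them, and the log2 fold change was -0.14 (SE 0.13, 95% interval -0.42 to 0.14, adjusted p = 0.476). *TFRC* had 128, 135 and 139 CPM in ASO_CTRL and 107, 135 and 119 CPM in ASO_LINC#3. Its groups overlapped, with a log2 fold change of -0.16 (SE 0.13, 95% interval -0.44 to 0.13, adjusted p = 0.445). *PPIB* had 266, 190 and 256 CPM in ASO_CTRL and 200, 233 and 284 CPM in ASO_LINC#3. Its fold change was near zero at 0.01 (SE 0.17, 95% interval -0.37 to 0.38, adjusted p = 0.981) although its libraries differed by up to 1.5-fold, and its sign was negative under upper-quartile scaling.

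*PPIA* was the only one of the 8 with all ASO_LINC#3 libraries below all ASO_CTRL libraries. It gave 1177, 999 and 1016 CPM in ASO_CTRL and 743, 793 and 994 CPM in ASO_LINC#3, where replicate 3 was just under the lowest control. The log2 fold change was -0.34 (SE 0.14, 95% interval -0.64 to -0.03, adjusted p = 0.122). Without ASO_LINC#3 replicate 3 it was -0.47 with an adjusted p of 0.0068, a value that passes the threshold on p and not that on size. The value of *PPIA* is uncertain, since reads shared with its pseudogenes cannot be assigned here. The 11 *PPIA* pseudogenes in the table held 40.4% to 46.3% of the reads on *PPIA* and these copies together. With their reads added, the log2 fold change of *PPIA* was -0.25 (adjusted p = 0.247). Of the listed pseudogenes of the 8 genes, some had too few counts to be tested. A single one was called, *PPIAP26*, at a log2 fold change of -0.90 (adjusted p = 0.00549), beside 7.54% of all genes tested. This count is a description and not a result about these copies. *ACTB* has 5 listed pseudogenes with 2.16% to 3.27% of the combined reads, and none was listed for *HPRT1*, *TBP*, *TFRC* or *PPIB*.

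**Figure D2:**
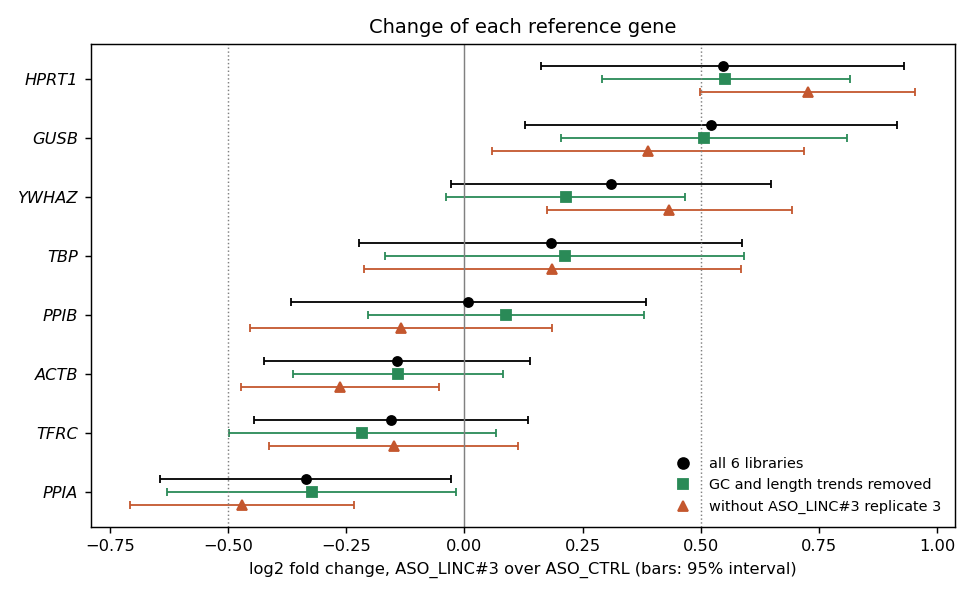
Log2 fold change of each reference gene (horizontal axis, ASO_LINC#3 over ASO_CTRL) with its 95% interval from edgeR, for all 6 libraries (black circles), with GC and length trends removed (green squares) and without ASO_LINC#3 replicate 3 (orange triangles). Dotted lines mark 0.5 in either direction. *HPRT1* lies at 0.55, 0.55 and 0.73 under the 3 settings and *PPIA* at -0.34, -0.32 and -0.47.

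A reference is usually chosen near the level of its targets, and the 8 genes covered a wide range of levels. Per kb of transcript, the mean level in ASO_CTRL was 674 ± 29.3 CPM for *ACTB* (chr7:5566040-5603533, minus strand), 476 ± 44 for *PPIA* (chr7:44836279-44864163, plus strand) and 266 ± 46.0 for *PPIB* (chr15:64447939-64455333, minus strand). It was 81.1 ± 5.26 CPM per kb for *HPRT1*, 26.7 ± 1.14 for *TFRC* (chr3:195739382-195809024, minus strand) and 24.9 ± 3.02 for *YWHAZ* (chr8:101928751-101965616, minus strand). The lowest were *GUSB* (chr7:65425671-65447202, minus strand) at 11.5 ± 1.87 and *TBP* (chr6:170863390-170881958, plus strand) at 7.61 ± 1.39 CPM per kb, all as mean ± SD with n = 3. Neighbours in this order did not overlap between libraries except *TFRC* and *YWHAZ*, at 25.5 to 27.7 and 22.7 to 28.3 CPM per kb. The cDNA was primed from the poly(A) tail with oligo-dT, so a level per kb depends on how much of each transcript was reached. The order also rests on the division by length. Before it, *HPRT1* (1395 bases) was at 113 CPM in ASO_CTRL, below *TFRC* (5012 bases) at 134 and *YWHAZ* (5011 bases) at 125. The 2 genes with pseudogene shares above 20%, *PPIA* and *GUSB*, are uncertain for that reason too. Positions are those of GRCh37 in the GENCODE annotation.

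The genes differed in how much they varied over the 6 libraries, whatever the group. By the SD of log2 CPM, the order from the steadiest was *TFRC* (0.14), *ACTB* (0.15), *TBP* (0.19), *PPIB* (0.23), *YWHAZ* (0.25), *PPIA* (0.25), *GUSB* (0.35) and *HPRT1* (0.37). Among the 7819 genes whose counts averaged 100 or more per library, for which the median SD was 0.26, 12.7% had a smaller SD than *TFRC* and 75.6% a smaller SD than *HPRT1*. Within ASO_CTRL alone *HPRT1* was among the steadier genes, at an SD of 0.10, below *PPIA*, *YWHAZ*, *GUSB*, *TBP* and *PPIB* and above *TFRC* and *ACTB* (both 0.06). Within ASO_LINC#3 its SD of 0.37 was the largest of the 8. Counting error was 0.04 to 0.07 log2 units for *HPRT1* and for *TFRC*. The rank of *HPRT1* depended on the libraries included, and it was 7 in place of 8 without ASO_CTRL replicate 2, ASO_LINC#3 replicate 1 or ASO_LINC#3 replicate 2.

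The geNorm measure M ranks candidate references by the mean SD of their log2 ratios to all the others, and a smaller M marks a steadier gene. It was lowest for *ACTB* (0.298), followed by *TFRC* (0.309) and *TBP* (0.312), and highest for *GUSB* (0.404) and *HPRT1* (0.441). When the gene with the largest M was removed in turn, *HPRT1* left first, then *GUSB*, *YWHAZ*, *TBP*, *PPIB* and *TFRC*, and the last pair was *ACTB* and *PPIA*, with an M of 0.117. That pair moved together. The ratio of *PPIA* to *ACTB* counts was 0.92, 0.85 and 0.84 in ASO_CTRL and 0.74, 0.77 and 0.77 in ASO_LINC#3, and the groups of that ratio did not overlap either.

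Relative to *HPRT1*, 6 of the other 7 genes had a negative log2 fold change in the test with counts scaled to *HPRT1*, and none was called. This scaling called 1.49% of all genes tested. *PPIA* had 10.1, 9.53 and 8.57 counts per *HPRT1* count in ASO_CTRL and 4.04, 4.15 and 8.28 in ASO_LINC#3. The difference was a log2 fold change of -0.78 (SE 0.29, 95% interval -1.43 to -0.12, adjusted p = 0.0827), and the groups did not overlap. *TFRC* had 1.10, 1.29 and 1.17 counts per *HPRT1* count in ASO_CTRL and 0.58, 0.71 and 0.99 in ASO_LINC#3, also without overlap (log2 fold change -0.65, SE 0.24, adjusted p = 0.0779). For *ACTB* the ratios were 11, 11.2 and 10.2 in ASO_CTRL and 5.47, 5.40 and 10.7 in ASO_LINC#3, where replicate 3 was at the control level (log2 fold change -0.59, SE 0.28, adjusted p = 0.148).

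*PPIB* (-0.43), *TBP* (-0.34) and *YWHAZ* (-0.23) had smaller log2 fold changes relative to *HPRT1*, and *GUSB* (0.06, SE 0.33) had none that its error could resolve. The ratio of *GUSB* to *HPRT1* was 0.19, 0.28 and 0.20 in ASO_CTRL and 0.19, 0.17 and 0.36 in ASO_LINC#3, so that the value near zero was the balance of lower and higher libraries. The sign of *GUSB* relative to *HPRT1* changed on leaving out replicate 1 or 3 of ASO_CTRL or replicate 3 of ASO_LINC#3. Without ASO_LINC#3 replicate 3, *PPIA* (-1.20), *ACTB* (-0.99), *TFRC* (-0.88) and *PPIB* (-0.86) were called lower relative to *HPRT1*, 4 of the 7, in a fit that called 51.5% of all genes tested lower and 53.4% in either direction. The smallest p that the exact two-sided permutation test can give with 3 libraries against 3 is 0.1, which *PPIA* and *TFRC* reached.

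Over all 28 pairs of the 8 genes, the count ratios of 9 pairs did not overlap between the groups and 0 were called by edgeR, whichever gene of the pair was the reference. The adjusted p differed with that choice, since each scaling has its own estimate of the spread and of how firmly that spread is known. With *HPRT1* as the gene measured, it was 0.0124 relative to *PPIA* (log2 fold change 0.93), 0.0134 relative to *TFRC* (0.71) and 0.0535 relative to *ACTB* (0.73). Each of the 9 pairs contained *PPIA*, *TFRC* or *GUSB*. For CPM values, 36.1% of all genes tested did not overlap between the groups, and no such share was computed for count ratios. The 9 of 28 pairs are therefore a description and not a result about these genes. The steadiest ratio was that of *ACTB* and *PPIA* (SD 0.12 on the log2 scale over the 6 libraries) and the least steady that of *HPRT1* and *PPIA* (SD 0.60). *GUSB* relative to *PPIA* had the largest difference of mean log2 ratios, 0.87, at ratios of 0.019, 0.030 and 0.024 in ASO_CTRL and 0.046, 0.040 and 0.044 in ASO_LINC#3. Its adjusted p of 0.0107 was just short of the threshold. *GUSB* relative to *ACTB* differed by 0.68 (adjusted p = 0.0339) and relative to *TFRC* by 0.69 (adjusted p = 0.0236).

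**Figure D3:**
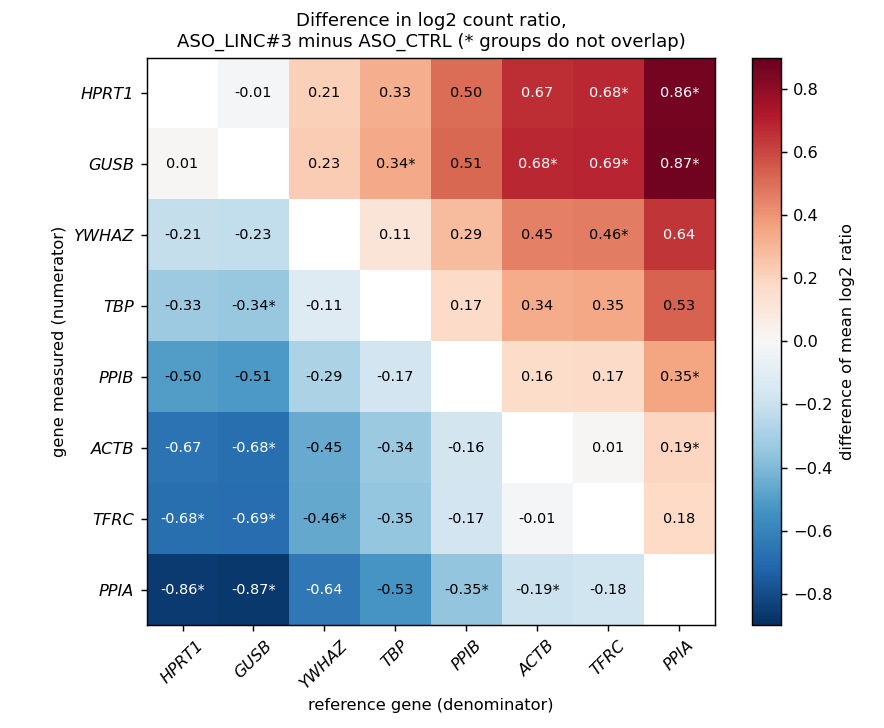
Difference of the mean log2 count ratio, ASO_LINC#3 minus ASO_CTRL, for each gene (rows) measured against each reference (columns), with red for a higher and blue for a lower ratio in ASO_LINC#3. An asterisk marks the 9 pairs (each shown above and below the diagonal with opposite signs) whose groups of 3 libraries did not overlap. The values run from -0.87 to 0.87, both for *GUSB* and *PPIA*.

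The choice of reference shifted the fold changes of the whole transcriptome, by amounts that varied somewhat from gene to gene in the fit. When counts were scaled to a single reference, each gene's log2 fold change moved from its value under TMM. The median of these shifts over all genes tested was -0.52 with *GUSB*, -0.51 with *HPRT1*, -0.32 with *YWHAZ* and -0.20 with *TBP*. It was 0.36 with *PPIA* and 0.17 with both *ACTB* and *TFRC*, and smallest in size with *PPIB*, at 0.005. With the geometric mean of all 8 genes it was -0.11. The references at the 2 ends thus differed by 0.88 log2 units for the same counts, more than the threshold of 0.5 used to call a gene.

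The number and the balance of called genes also differed between references, and references with nearly equal shifts, such as *HPRT1* and *GUSB*, differed in both. The p-values behind these calls are not on one scale. For the gene *WNT2B*, edgeR gave a log2 fold change of -3.25 relative to *PPIB* (SE 0.32, adjusted p = 6.36e-21). Under TMM it gave -3.23 with a smaller SE of 0.20 and a larger adjusted p of 6.66e-06. Numbers of genes or targets called under different references are therefore not strictly comparable. Scaled to *PPIA*, 1608 genes (11%) were called, 1465 higher and 143 lower. Scaled to *GUSB*, 2051 genes (14%) were called, 190 higher and 1861 lower. *TFRC* gave 1552 (10.6%) with 1257 higher, *ACTB* gave 970 (6.62%) with 771 higher, and *PPIB* gave 748 (5.1%) with 467 higher. *TBP* gave 1008 (6.88%) with 637 lower, *YWHAZ* gave 611 (4.17%) with 405 lower, and all 8 genes together gave 1173 (8%) with 542 higher and 631 lower. *HPRT1* gave the fewest, 218, with 64 higher and 154 lower. The count under *HPRT1* depended on single libraries: it was 8097 without ASO_LINC#3 replicate 3, 75 and 27 without ASO_LINC#3 replicates 2 and 1, 4 without ASO_CTRL replicate 3, and 0 without ASO_CTRL replicate 1 or 2.

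**Figure D4:**
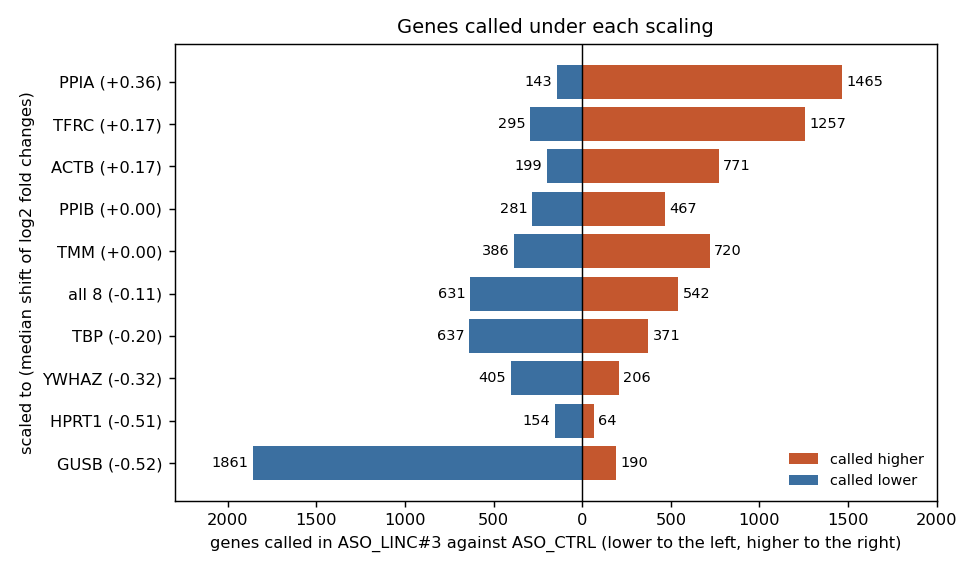
Genes called higher (orange, to the right) and lower (blue, to the left) with ASO_LINC#3 when the counts were scaled by TMM, to each reference gene or to all 8 together, at thresholds of 0.01 for the adjusted p and 0.5 for the log2 fold change. The number in parentheses is the median shift of all log2 fold changes, and the order runs from 1465 higher and 143 lower with *PPIA* to 190 higher and 1861 lower with *GUSB*.

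The study had RT-qPCR primers for 15 tested genes that serve here as targets, among them *GAS6*, a ligand of the TAM receptor kinases, and its neighbour *RASA3*, a Ras GTPase-activating protein. The paper picked part of its RT-qPCR genes because its RNA-seq in H226 showed them strongly affected. Calls among the targets are therefore not independent of these data. Under TMM 11 of the 15 were called, beside 7.54% of all genes tested. Relative to *HPRT1* 6 were called, beside 1.49% of all genes tested. The 6 were *COL1A1* (type I collagen), *PDGFRB* (a PDGF receptor), *SEMA5A* (a semaphorin) and *WNT2B* (a Wnt ligand), which were lower, and the interleukin genes *IL1A* and *IL1B*, which were higher. *ACTB*, *PPIA* and *TFRC* gave 11 called targets each, *TBP*, *GUSB* and *PPIB* 10 each, *YWHAZ* 8 and all 8 references together 12. Relative to *HPRT1*, no target was called without ASO_CTRL replicate 1, 2 or 3, 2 were called without ASO_LINC#3 replicate 1, 5 without replicate 2 and 11 without replicate 3.

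The target with the largest decrease, *WNT2B*, kept its direction and its call under every reference, at 155, 183 and 182 CPM in ASO_CTRL and 19.1, 13.5 and 23.6 CPM in ASO_LINC#3, and its log2 fold change ranged from -3.76 relative to *GUSB* to -2.89 relative to *PPIA*. *COL1A1*, at 344, 251 and 367 CPM in ASO_CTRL and 123, 135 and 117 CPM in ASO_LINC#3, changed by -1.36 under TMM (adjusted p = 0.00033), -1.85 relative to *HPRT1* (adjusted p = 0.00451) and -1.0 relative to *PPIA* (adjusted p = 0.00356). Thus the same counts gave a remaining level of 0.28 of the control with *HPRT1* and of 0.50 with *PPIA*.

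Targets with smaller changes depended on the reference for their call. *GAS6* had 316, 268 and 279 CPM in ASO_CTRL and 164, 168 and 242 CPM in ASO_LINC#3, without overlap. Its log2 fold change was -0.59 under TMM (SE 0.16, adjusted p = 0.0307), -1.02 relative to *HPRT1* (SE 0.32, adjusted p = 0.0525), -0.26 relative to *PPIA* (SE 0.18, adjusted p = 0.305) and -1.16 relative to *GUSB* (SE 0.24, adjusted p = 0.0023). The remaining level of *GAS6* was thus 0.49 of the control with *HPRT1* and 0.83 with *PPIA*. *SMARCC1*, a core subunit of SWI/SNF, moved likewise from -0.16 relative to *PPIA* (adjusted p = 0.606) to -1.0 relative to *HPRT1* (adjusted p = 0.0267) and was called with *GUSB* (-1.02, adjusted p = 0.00454).

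Among the targets with higher values in ASO_LINC#3, scaling to *HPRT1* gave smaller fold changes. *RASA3*, at 19.3, 16.7 and 15.5 CPM in ASO_CTRL and 32.0, 29.8 and 32.8 CPM in ASO_LINC#3, was called under TMM (0.88, adjusted p = 0.0038) and relative to *PPIA* (1.24, adjusted p = 0.000604). Relative to *HPRT1* its log2 fold change was 0.39 (adjusted p = 0.281) and relative to *GUSB* 0.34 (adjusted p = 0.281). *DDIT3*, a transcription factor of the integrated stress response, was at 66.9, 58.5 and 60.4 CPM in ASO_CTRL and 178, 178 and 214 CPM in ASO_LINC#3. It was called with *PPIA* (1.96) and *GUSB* (1.07) and had a log2 fold change of 1.16 with an adjusted p of 0.025 relative to *HPRT1*, where the interleukin gene *IL8* (1.54, adjusted p = 0.0198), the signalling adaptor *TRAF1* (1.34, adjusted p = 0.0566) and the noncoding RNA *MEG3* (0.74, adjusted p = 0.0852) were not called either.

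The noncoding RNA *TUG1* was the target nearest to no change under TMM, at 0.02 (SE 0.23), from 19.1, 12.1 and 13.7 CPM in ASO_CTRL and 17.3, 16.4 and 11.1 CPM in ASO_LINC#3. Relative to *HPRT1* its log2 fold change was -0.54 (adjusted p = 0.128) and its ratios did not overlap between the groups, while relative to *PPIA* it was 0.41 (adjusted p = 0.271). It was called with none of the 8 references, with all 8 together or under TMM.

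**Figure D5:**
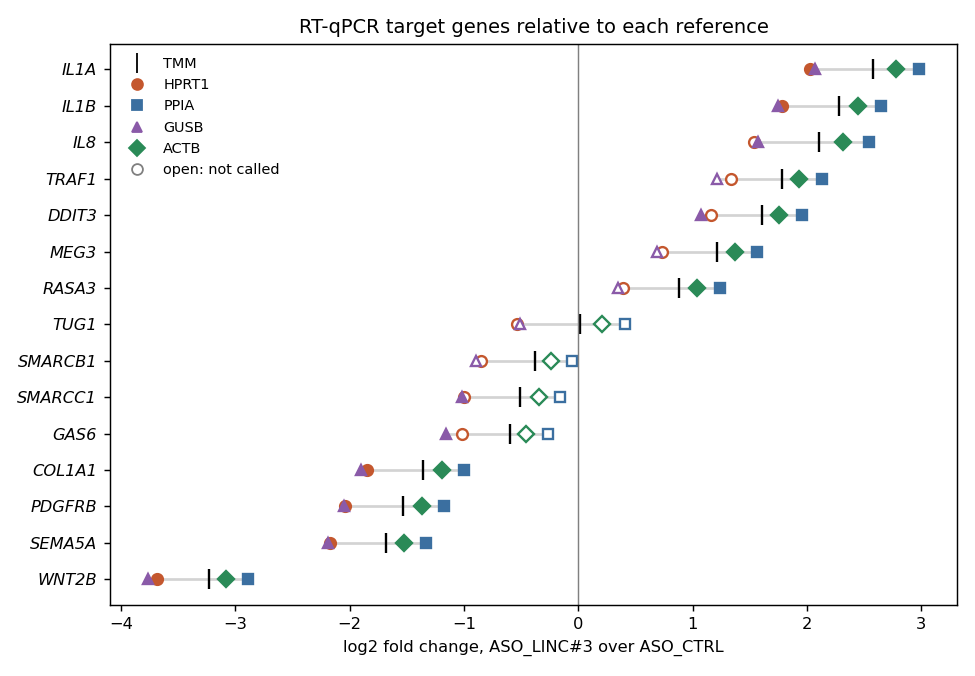
Log2 fold change (horizontal axis, ASO_LINC#3 over ASO_CTRL) of the 15 RT-qPCR target genes under TMM (black bars) and relative to *HPRT1*, *PPIA*, *GUSB* or *ACTB* (filled symbols where called, open where not; the TMM bars do not show the call). In each row *HPRT1* and *GUSB* lie to the left of TMM and *PPIA* to the right, and *TUG1* moves from -0.54 to 0.41.

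Other classical reference genes were examined for a comparison. Of 29, 2 were called higher and 0 lower, a share close to the 7.54% of all genes tested, and their median log2 fold change was -0.12, beside -0.003 for all genes tested. Those that rose were the glycolytic enzymes *PGK1* (692 ± 28.4 to 1809 ± 186 CPM, log2 fold change 1.39, adjusted p = 5.99e-05) and *GAPDH* (2054 ± 186 to 3584 ± 894 CPM, 0.80, adjusted p = 0.00868). Of 11 genes proposed as references from RNA-seq, 2 rose, the glycolytic enzyme *GPI* (1.03, adjusted p = 0.000835) and the endosomal GTPase *RAB7A* (0.56, adjusted p = 0.00989). The smallest SD over the 6 libraries in the first of these lists was that of *UBE2D2*, a ubiquitin-conjugating enzyme (0.06, 220 ± 2.33 and 226 ± 14.1 CPM), and *C1orf43* of the second list had 0.04 (226 ± 1.59 and 238 ± 4.06 CPM), both below all 8 genes and both picked after their values were seen. The 95% interval lay within 0.5 of zero for 11 of the 29 and 6 of the 11, and for 15.1% of all genes tested.

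The relatives of the 8 genes are given beside the 7.54% of all genes tested that were called. None of 16 cyclophilins was called, and they ranged from *PPIH* of the spliceosome (-0.63, adjusted p = 0.052) to the nucleoporin *RANBP2* (0.58, adjusted p = 0.119). None of 7 proteins of the 14-3-3 family was called, with *YWHAE* the lowest (-0.16) and *SFN* the highest (0.56, adjusted p = 0.0537). Of the actins, 3 were tested and none called, from *ACTA2* of smooth muscle (-0.58, adjusted p = 0.143) to *ACTB* itself, with *ACTG1*, the other cytoplasmic actin, at -0.21. Of 14 lysosomal glycosidases none was called, and *GUSB* was the highest of them and *NAGLU* the lowest (-0.54, adjusted p = 0.107).

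Of 14 TFIID subunits only *TAF13* rose (38.1 ± 5.27 to 70.3 ± 15.1 CPM, log2 fold change 0.89, adjusted p = 0.00803). The group listed with *HPRT1* held 12 enzymes of purine salvage, interconversion and breakdown. In this group 3 rose and none fell, beside 7.54% of all genes tested that were called. These were the purine nucleoside phosphorylase *PNP* (31.9 ± 3.79 to 92.2 ± 2.71 CPM, 1.52, adjusted p = 7.31e-05), the ectonucleotidase *NT5E* (1.28, adjusted p = 0.00133) and the AMP deaminase *AMPD3* (2.09, adjusted p = 0.000647). The median of the group was 0.50, and 10 of the 12 did not overlap between the conditions, beside 36.1% of all genes tested. *APRT*, which salvages adenine as *HPRT1* salvages hypoxanthine, was on the other side at -0.50 (adjusted p = 0.0686).

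Around *TFRC*, 3 of 13 tested genes of cellular iron handling rose and 1 fell, beside the 7.54% of all genes tested that were called. Ferritin heavy chain *FTH1* (0.66, adjusted p = 0.00467), the haem-degrading enzyme *HMOX1* (1.41, adjusted p = 0.00637) and the metal transporter *SLC39A14* (0.67, adjusted p = 0.00987) rose. *ACO1*, whose product binds the iron-responsive elements of the *TFRC* and ferritin mRNAs, fell from 355 ± 8.75 to 154 ± 15.3 CPM (log2 fold change -1.20, adjusted p = 0.000168).

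The genes with a pattern most like *HPRT1* were sought by the SD of their log2 ratio to it over the 6 libraries, among 7818 genes averaging 100 or more counts. The closest were *PRNP* (SD 0.05), *DSCR3* (0.06), *HIPK1* (0.06), *RAB3GAP2* (0.06) and *SEC62* (0.06). *PRNP*, the prion protein gene, gave 78.4, 75.9 and 82.8 CPM in ASO_CTRL and 126, 131 and 77.8 CPM in ASO_LINC#3. It repeats the high replicates 1 and 2 and the replicate 3 at control level. The 5 genes had log2 fold changes of 0.49 to 0.55, and none was called. Both this likeness to *HPRT1* and the pattern of *PRNP* follow from how the genes were picked. Of the other reference genes *YWHAZ* came nearest, with 10.2% of the candidates closer to *HPRT1*, and *PPIA* was the farthest, with 77.4% closer.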

How the data were processed

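RNA-seq was measured in 6 libraries of H226 cells, 3 per group. The authors aligned reads to hg19 with STAR and deposited raw counts per gene name, whole numbers without normalization. Which tool and annotation made the counts, and whether it used strand, is not given in the sources used here, so reads shared with pseudogenes or antisense genes cannot be assigned. Reads assigned to no gene (24.8% to 28.1% of each total) stayed out of library sizes and tests. Counts on genes numbered 7656793, 5738340 and 10546786 in ASO_CTRL replicates 1 to 3 and 6780016, 5810367 and 3686828 in ASO_LINC#3. Groups and replicate numbers came from the sample labels. Some rows, that of *SWINGN* included, were not analysed here, and 1 gene of the list of other classical reference genes is not reported here.

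Tests used edgeR 4.0.16 in R 4.3.3 (filterByExpr, TMM, glmQLFit and glmQLFTest, group only), with Benjamini-Hochberg adjustment over all 14660 genes tested, and were checked on simulated data. Calls needed an adjusted p under 0.01 together with a log2 fold change of more than 0.5 in size, the thresholds in the study's methods. All standard errors and 95% intervals of log2 fold changes come from the fit, in which deeper libraries weigh more, so they can differ from differences of means. For scaling to a reference gene, library sizes were set in proportion to its counts. Log2 CPM used a prior count of 2. Transcript lengths and GC content came from GENCODE for GRCh37, where 13370 names matched directly and 964 through older symbols, and the trends were splines with 5 degrees of freedom. Pseudogenes were taken by name.

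The members and gene lists were chosen with earlier results of these data known. Named genes are the 8 members, the called genes of each list (or else its highest and lowest), the tested RT-qPCR targets and the 5 genes closest to *HPRT1*. Alternatives were DESeq2 1.42.0, limma 3.58.1 (voom), other scalings, filters and thresholds, GC correction, replicate blocks and leaving out each library.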

Additional observations from a re-analysis of the deposited data

How the results depend on the processing

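Scaling to DESeq2 size factors, the upper quartile or library size, DESeq2, limma-voom, robust dispersion and other filters on low counts left 0 of the 8 reference genes called and *HPRT1* between 0.52 and 0.56, and only the sign of *PPIB* changed (-0.013 with the upper quartile). The number of genes called was 2465 at an adjusted p below 0.05 and 1689 with GC content and length, where 1 reference gene was called, *HPRT1* at 0.55. Deviations from the group means correlated at 0.06, -0.15 and -0.18 between libraries with the same replicate number. With 3 libraries per group these values show no pairing and cannot exclude it. With the replicate numbers as a block 656 genes were called and 694 with *HPRT1* as the reference, against 1106 and 218, and *HPRT1* was at 0.52. With the block added to the GC and length correction, *HPRT1* was at 0.54 with an adjusted p of 0.0169 and 0 reference genes were called. The number called with *HPRT1* as the reference, 218, became 970 with *ACTB*, 1008 with *TBP*, 1608 with *PPIA*, 611 with *YWHAZ*, 2051 with *GUSB*, 1552 with *TFRC*, 748 with *PPIB*, 1173 with all 8 and 1106 with TMM. The RT-qPCR targets called, 6 with *HPRT1*, became 11 with *ACTB*, *PPIA*, *TFRC* or TMM, 10 with *TBP*, *GUSB* or *PPIB* and 12 with all 8. By construction, signs relative to *HPRT1* reversed with other references: *TUG1* was 0.21 with *ACTB*, 0.41 with *PPIA*, 0.18 with *TFRC*, 0.066 with *PPIB* and 0.018 with TMM, *TBP* was 0.076 with all 8 and 0.18 with TMM, *YWHAZ* was 0.20 and 0.31, and *PPIB* was 0.0084 with TMM. Leaving out 1 library at a time gave 0 to 1 reference genes called, 359 (without ASO_CTRL replicate 3) to 2616 (without ASO_LINC#3 replicate 3) genes called, 0 to 8097 with *HPRT1* as the reference and 0 to 11 targets. It gave log2 fold changes of 0.43 to 0.73 for *HPRT1*, -0.13 to 0.12 for *PPIB* and -0.34 to 0.27 for *GUSB* relative to *HPRT1*, and a rank of *HPRT1* by spread of 7 to 8. The cause of these differences was not tested. Depth limits *TBP* and *GUSB* most.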
